A study of Homo sapiens with 8 samples.

Results

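Interferon-stimulated genes are the transcripts that cells raise when interferon binds its receptors, and 39 of them, listed by name, were followed across 2 brain-metastatic breast cancer lines with and without induction of a hairpin against MET. Of the 39, 38 had a probe set naming that gene alone, out of 18239 genes on the array, and STAT2 was not analysed here. DDX58 appears under its current symbol RIGI. Each gene was read on its brightest probe set, taken over all 8 arrays. The 4 groups were 231BrM cells with doxycycline, 231BrM cells without it, SKBrM3 cells with doxycycline and SKBrM3 cells without it, with 2 arrays each. By their names the lines derive from MDA-MB-231 and SKBR3, both human breast cancer lines. Cells of all 4 groups carried the doxycycline-inducible hairpin and were grown in DMEM with 10% FBS. Doxycycline was given at 100 ng (no volume is stated) for 48 h. No group received the drug without a hairpin, so a doxycycline effect holds the drug, the hairpin and the loss of MET together. Whether the 2 arrays of a group came from separately grown cells is not in the labels, and each p-value is set against array-to-array spread that may be technical alone.

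Type I and type III interferons act through their receptors and the kinases JAK1 and TYK2, which activate STAT proteins that join IRF9 to form the factor ISGF3. ISGF3 binds the interferon-stimulated response element (ISRE) in the promoters of its targets. Type II interferon acts mainly through STAT dimers at gamma-activated sites (GAS). The induced proteins sense viral RNA, block viral entry, translation and budding, attach the ubiquitin-like protein ISG15 to other proteins, and attract T cells. Many cancer cell lines keep part of this programme on without added interferon.

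Values are RMA signals on the log2 scale, so a difference of 1 is 2-fold. Genes entered the tests when 2 or more arrays read above 4.41, which 40% of all values do not reach. Of the 38 members 29 passed and 9 did not. Tests were limma fits of 4 group means over 13002 genes, two-sided, and a gene is called at a Benjamini-Hochberg adjusted p under 0.05.

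Facts of the whole series bear on these results in a few places. MET, the hairpin's target, stood at 5.85 and 5.35 on the 231BrM doxycycline arrays, against 9.45 and 9.26 on the 231BrM control arrays. It stood at 5.76 and 5.71 on the SKBrM3 doxycycline arrays, against 9.25 and 9.20 on the SKBrM3 control arrays. The SKBrM3 arrays go against their label. Of 12 markers of SKBR3, 10 were tested and 2 (PGAP3 and MIEN1) were higher on the SKBrM3 control arrays, while 4 were higher on the 231BrM control arrays. ERBB2, which is amplified in SKBR3, read 6.76 to 6.89 on the 231BrM arrays and 6.70 to 7.11 on the SKBrM3 arrays. VIM, a mesenchymal marker of MDA-MB-231, read 12.77 to 12.91 on the 231BrM arrays and 12.72 to 12.78 on the SKBrM3 arrays. Of 10 markers of MDA-MB-231, all tested, 5 (SPARC, PLAU, LOX, CAV2 and CAV1) were higher on the 231BrM control arrays and 0 lower. SPARC lay under the filter level on the SKBrM3 arrays, at 4.07 to 4.36. The other markers of MDA-MB-231, VIM, ZEB1, AXL, MSN and CD44, were not called between the control arrays. AXL read 11.43 to 11.64 on the 231BrM arrays and 11.29 to 11.60 on the SKBrM3 arrays. The SKBrM3 arrays are therefore called the SKBrM3-labelled arrays below, and a comparison of the lines is a comparison of these arrays. One array stands apart, 231BrM doxycycline replicate 1. Its actin control showed 1.24 log2 units more signal at the 3′ than at the 5′ end, against 0.46 to 0.59 on the other 7 arrays. Of the markers of leukocytes (2 tested of 6 with a probe set), fibroblasts and endothelium (4 of 7) and astrocytes (1 of 3), 1 (COL1A1) was called by limma between the lines without doxycycline, and 0 of those tested were called for doxycycline in either line.

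Promoters of the members were searched for the elements that interferon factors bind. The window searched ran from 250 bases before to 50 bases after the start of each gene (RefSeq, GRCh38.p14), and 30 of the 38 members were in that table. An ISRE was taken as GAAA, any 2 bases and GAAA, and a GAS as TTCNNNGAA, each on either strand, and matches of both may overlap. An ISRE match was present in 20 of the 30 member promoters (66.7%) and in 3.65% of 27305 promoters. A GAS match was present in 10 of the 30 (33.3%) and in 7.88% of all. An ISRE match was present for 12 of the 16 members with a promoter that were higher in 231BrM than in SKBrM3-labelled controls, for 5 of 8 other tested members and for 3 of 6 under the filter. The letters of a match do not show that a factor binds. Below are the 5 promoters, from 150 bases before the start through the first 20 bases of the transcript, whose genes carry the findings: BST2 and IFITM1 differ most between the lines, and DDX60, GBP3 and IFI44 are among the members with the smallest doxycycline p-values. Capitals mark ISRE matches, and each line reads 5′ to 3′ on the strand of the gene.
BST2: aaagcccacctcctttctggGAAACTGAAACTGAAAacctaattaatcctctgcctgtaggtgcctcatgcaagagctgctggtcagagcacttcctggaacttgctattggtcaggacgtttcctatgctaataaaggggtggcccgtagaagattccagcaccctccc
IFITM1: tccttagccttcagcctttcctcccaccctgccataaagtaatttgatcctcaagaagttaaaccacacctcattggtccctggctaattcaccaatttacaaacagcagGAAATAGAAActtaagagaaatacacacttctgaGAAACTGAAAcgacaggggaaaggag
DDX60: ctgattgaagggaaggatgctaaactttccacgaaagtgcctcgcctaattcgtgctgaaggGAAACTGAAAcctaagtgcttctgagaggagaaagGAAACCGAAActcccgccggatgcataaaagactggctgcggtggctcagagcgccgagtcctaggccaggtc
GBP3: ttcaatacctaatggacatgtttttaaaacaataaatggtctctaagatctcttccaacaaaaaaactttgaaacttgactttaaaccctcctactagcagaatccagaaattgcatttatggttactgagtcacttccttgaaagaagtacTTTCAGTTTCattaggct
IFI44: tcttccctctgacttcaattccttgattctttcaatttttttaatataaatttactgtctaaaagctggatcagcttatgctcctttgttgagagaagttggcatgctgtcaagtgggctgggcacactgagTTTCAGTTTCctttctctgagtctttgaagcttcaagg
They lie at chr19:17405611-17405780 (minus strand), chr11:313890-314059 (plus), chr4:168318733-168318902 (minus), chr1:89022847-89023016 (minus) and chr1:78649639-78649808 (plus). In BST2 a pair of overlapping ISRE matches spans bases -130 to -115 from the start. In IFITM1 one match lies at -40 to -31 and the other crosses the start. DDX60 holds a match at -88 to -79 and another at -53 to -44. GBP3 and IFI44 hold 1 match each, in the opposite orientation, and in GBP3 it lies just inside the transcript.

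The members differed between the lines without any doxycycline. On the 231BrM control arrays 20 of the 29 tested members were higher than on the SKBrM3-labelled control arrays and 0 were lower, while 39.7% of all genes tested were called, 19.8% higher and 19.9% lower. The median difference of the 29 was 0.51 log2 units, against -0.05 over all genes tested. Of the 29, 24 exceeded the filter level on all 8 arrays. MX1 and BST2 exceeded it on 231BrM arrays only, and IFI27 on 4 231BrM arrays and 1 SKBrM3-labelled array. These members so entered the test through the group where they are high. No p is given for them, though they are counted in the 20 and in later counts of members higher in 231BrM. Without the filter 22 of 38 members were called in either direction, where 28.7% of all genes were. Among the 22, OAS1 was lower in 231BrM controls (3.78 and 3.78, against 4.01 and 4.11), with all values under the filter level. In bulk RNA, fewer expressing cells and less RNA per cell cannot be told apart.

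**Figure D1:**
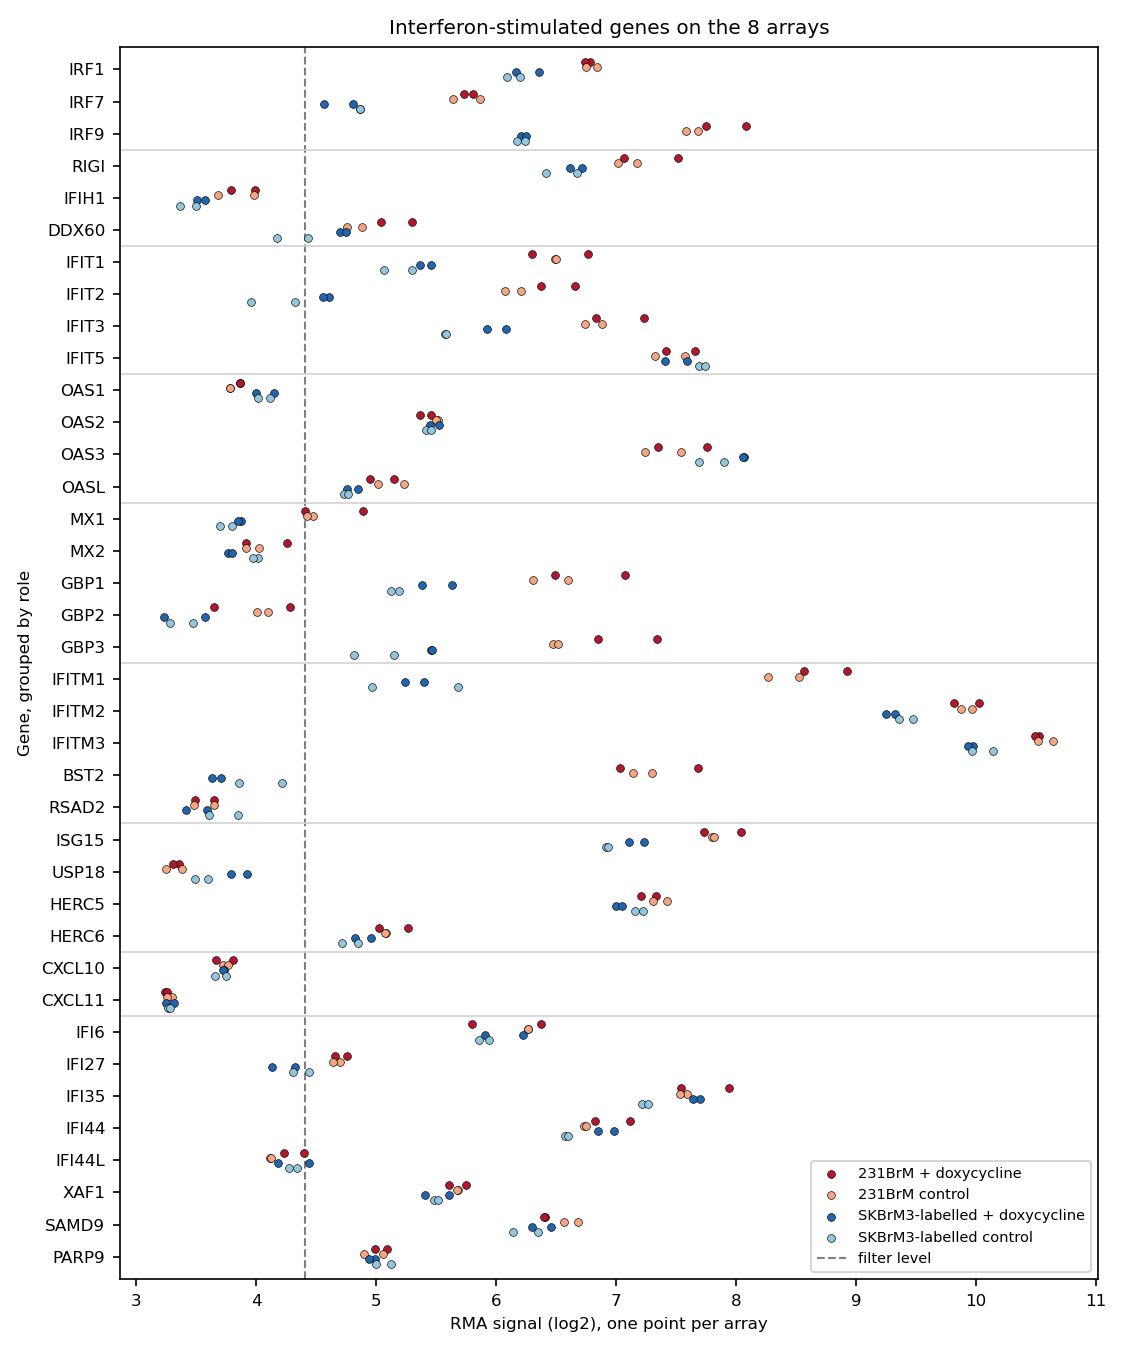
RMA signal (log2, x axis) of the 38 members on each of the 8 arrays, grouped by role; each point is 1 array and the dashed line is the filter level of 4.41. For BST2 and IFITM1 the 231BrM points lie far to the right of all SKBrM3-labelled points, and the 9 members under the filter lie between 3.23 and 4.44.

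Membrane-bound antiviral proteins showed the widest gap. BST2, or tetherin, holds budding virus particles at the cell surface. It read 7.14 and 7.30 on the 231BrM control arrays, against 3.86 and 4.22 on the SKBrM3-labelled control arrays. The difference was 3.18 log2 units (standard error 0.197), or 9.06-fold. The SKBrM3-labelled values lie under the filter level, so the fold is limited by low signal. BST2 probe sets not used here but above the filter gave 3.80 and 3.26. IFITM1, which blocks fusion of viruses with cell membranes, read 8.52 and 8.26 on the 231BrM control arrays, against 4.96 and 5.68 on the SKBrM3-labelled control arrays. It was 8.42-fold higher in 231BrM (3.07 log2 units, standard error 0.217, limma adjusted p = 1.69e-05), and its other probe set gave 3.55. Its close relatives IFITM2 and IFITM3 had smaller gaps. IFITM2 read 9.97 and 9.87 on the 231BrM control arrays, against 9.36 and 9.47 on the SKBrM3-labelled ones, a difference of 0.50 (limma adjusted p = 0.0034). IFITM3 read 10.64 and 10.52 on the 231BrM control arrays, against 9.97 and 10.14 on the SKBrM3-labelled ones, a difference of 0.53 (limma adjusted p = 0.00175). The IFITM probe sets used are of the type whose probes can match several related transcripts, so signal may be shared among the 3 genes. RSAD2, or viperin, lay at 3.41 to 3.85 on all 8 arrays, under the filter.

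The IFIT proteins bind viral RNA, and 3 of the 4 were higher in 231BrM. IFIT2 read 6.20 and 6.08 on the 231BrM control arrays, against 3.95 and 4.32 on the SKBrM3-labelled control arrays, a 4.01-fold difference (2.00 log2 units, standard error 0.137, limma adjusted p = 1.44e-05). The SKBrM3-labelled control values lie under the filter level, so this fold too is limited by low signal. A second IFIT2 probe set, under the filter, gave 0.31. IFIT1 read 6.49 and 6.50 in 231BrM controls, against 5.29 and 5.06 in SKBrM3-labelled controls, and was 2.49-fold higher (limma adjusted p = 0.000178). IFIT3 read 6.74 and 6.88 in 231BrM controls, against 5.57 and 5.58 in SKBrM3-labelled controls, and was 2.35-fold higher (limma adjusted p = 0.000139). IFIT5 was the exception: it read 7.33 and 7.57 in 231BrM controls, against 7.69 and 7.74 in SKBrM3-labelled controls. Its difference of -0.26 had a 95% interval from -0.53 to 0.0047 (limma adjusted p = 0.107).

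The 3 transcription factors that were measured, IRF9, IRF7 and IRF1, were higher in 231BrM. IRF9, the DNA-binding subunit of ISGF3, read 7.68 and 7.58 on the 231BrM control arrays, against 6.17 and 6.24 on the SKBrM3-labelled control arrays. That is a difference of 1.42 (standard error 0.111, limma adjusted p = 2.92e-05), and 3 further IRF9 probe sets above the filter gave 0.83, 0.46 and 0.45. IRF7, which drives the interferon-alpha genes, read 5.87 and 5.64 in 231BrM controls, against 4.86 and 4.87 in SKBrM3-labelled controls, a difference of 0.89 (limma adjusted p = 0.000321). IRF1, an activator downstream of type II interferon, read 6.74 and 6.84 in 231BrM controls, against 6.09 and 6.20 in SKBrM3-labelled controls, a difference of 0.65 (limma adjusted p = 0.000658). For IRF1 the remaining probe sets above the filter gave 0.02 and 0.28, so the size of its difference depends on the probe set.

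Among the antiviral GTPases, GBP3 and GBP1, guanylate-binding proteins, showed clear gaps. GBP3 read 6.47 and 6.51 in 231BrM controls, against 5.15 and 4.82 in SKBrM3-labelled controls, a 2.85-fold difference (limma adjusted p = 0.000146). GBP1 read 6.30 and 6.60 in 231BrM controls, against 5.19 and 5.13 in SKBrM3-labelled controls, a 2.45-fold difference (limma adjusted p = 0.000706), and its 4 other probe sets gave 1.27 to 1.98 log2 units. MX1, which traps viral nucleocapsids, was 0.70 log2 units higher, with SKBrM3-labelled control values of 3.79 and 3.69 under the filter level. MX2 and GBP2 stayed under the filter on all 8 arrays.

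The ISG15 system and the RNA sensors held members higher in 231BrM as well. ISG15, the ubiquitin-like modifier itself, read 7.80 and 7.81 in 231BrM controls, against 6.92 and 6.93 in SKBrM3-labelled controls, a difference of 0.88 (limma adjusted p = 0.000304). HERC6 differed by 0.30 (limma adjusted p = 0.0459), HERC5, the ligase that attaches ISG15, had 0.17 (limma adjusted p = 0.142), and USP18, which removes it, was under the filter. RIGI, a cytosolic sensor of viral RNA, read 7.17 and 7.01 in 231BrM controls, against 6.41 and 6.68 in SKBrM3-labelled controls, a difference of 0.55 (limma adjusted p = 0.0196). Its other probe sets gave 1.28 and 1.34. DDX60, a helicase linked to RNA sensing, read 4.76 and 4.88 in 231BrM controls, against 4.43 and 4.18 in SKBrM3-labelled controls, a difference of 0.51 (limma adjusted p = 0.00783). The sensor IFIH1 was under the filter.

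The OAS family did not share this direction as a whole. OAS enzymes make oligoadenylates that switch on RNase L, while OASL lacks that activity. OASL was 0.37 log2 units higher in 231BrM (limma adjusted p = 0.0197). OAS3 read 7.54 and 7.24 in 231BrM controls, against 7.69 and 7.90 in SKBrM3-labelled controls, a difference of -0.40 (limma adjusted p = 0.0611). Its other probe sets gave -0.06 and -0.16, with all control values under the filter level. OAS2 had 0.07 with a 95% interval from -0.10 to 0.25, and OAS1 was under the filter. Of the 7 remaining tested members, SAMD9, an antiviral factor, was higher by 0.38 (limma adjusted p = 0.0145) and IFI27, a small mitochondrial protein, by 0.29 (limma adjusted p = 0.0363). IFI6 (0.37), IFI35 (0.32), XAF1 (0.18), IFI44 (0.15) and PARP9 (-0.09) did not pass. IFI44L and the T cell attractants CXCL10 and CXCL11 were under the filter in both lines.

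The arrays with doxycycline gave the gap again. Their group means share no array with the comparison above, but the spread, the filter and the probe sets were taken over all arrays. The calls of both comparisons are therefore not independent. With doxycycline 18 of 29 members were higher in 231BrM, where 21.8% of all genes tested were. OAS3 was lower (-0.51, limma adjusted p = 0.0234), where 19.8% of all genes were. In either direction 41.6% of all genes were called. Of the 20 members called without doxycycline 17 were also called higher with it, and 16.4% of all genes were called higher both times. BST2 differed by 3.69, IFITM1 by 3.43 and IFIT2 by 1.93 log2 units with doxycycline. For 19 of the 29 tested members all 4 231BrM arrays lay above all 4 SKBrM3-labelled arrays, against 22.7% of all genes tested. For 0 of the 29 did they lie below, against 22% of all genes. Among members under the filter, IFIH1 and GBP2 lay wholly above, and OAS1 and USP18 wholly below.

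**Figure D2:**
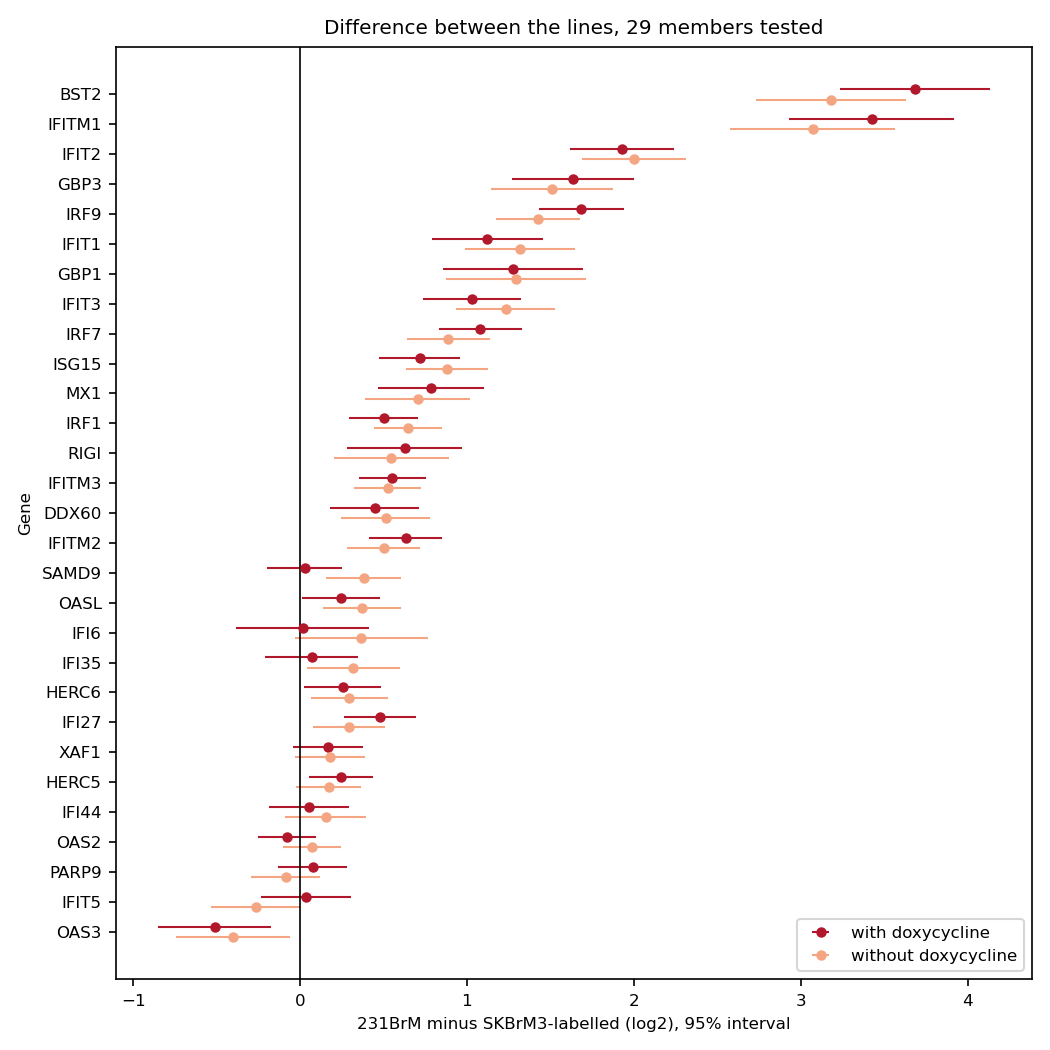
Difference of the lines (231BrM minus SKBrM3-labelled, log2, x axis) for the 29 members tested, with doxycycline (dark) and without it (light); points are limma estimates from 2 arrays a group and bars are 95% intervals. BST2 and IFITM1 lie above 3 in both, and OAS3 lies below 0 in both.

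The number of arrays limits the smaller differences. RIGI, DDX60, OASL, HERC6, IFI27 and SAMD9 lost the call when single arrays were left out, as did HERC6 without the filter and IFI27 with the mean of all its probe sets. Leaving out 1 array at a time gave 15 to 24 members called, and IFITM1 and IFIT2 were called each time.

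Of 7 interferon genes listed 5 had a probe set, and these did not stand out of the low signal. No interferon-alpha gene was among those read. IFNB1, IFNE, IFNK, IFNL1 and IFNG all lay under the filter level, at 3.26 to 4.14 on the 8 arrays. Of 64 other genes of the pathway, fixed as lists beside the members, 61 had a probe set and 50 were tested. Between the control arrays 14 of the 50 were higher in 231BrM and 5 lower, where 19.8% of all genes tested were higher and 19.9% lower. IFNLR1, SOCS1 and DHX58 are among the 14 and entered the test through the 231BrM arrays, where they are high, so no p is given for them. The genes named from these for the lines were chosen after their values were seen. IFNLR1, a receptor chain for type III interferon, had a difference of 1.23, with SKBrM3-labelled control values of 3.61 and 3.85 under the filter level. The receptor kinases JAK1 and TYK2 were higher by 0.73 and 0.68 (limma adjusted p = 0.000865 and 0.0013), and SOCS1, a feedback inhibitor of these kinases, had a difference of 1.11, again with SKBrM3-labelled values under the filter level. The receptor chains IFNAR2 and IFNGR2 were lower, by -0.32 and -0.34 (limma adjusted p = 0.0413 and 0.0335). Of 21 further interferon-induced genes tested, 7 were higher (19.8% of all genes), among them NMI (1.03), and 3 were lower (19.9% of all genes): SP100 (-0.65), SAMHD1 (-0.50) and PNPT1 (-0.37).

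Doxycycline differences of the members were smaller in median size than the line differences, and none passed the test within a line. In 231BrM 0 of 29 members passed limma, where 0.162% of all genes tested were called, and at an unadjusted p under 0.05 4 members were higher (6.15% of all genes) and 0 lower (3.74%). Those 4 were GBP3 (0.60, standard error 0.16, limma adjusted p = 0.308), IFIT2 (0.37), DDX60 (0.35) and IRF9 (0.28). In the SKBrM3-labelled arrays 0 of 29 passed limma, where 3.43% of all genes were called (1.15% higher), and at an unadjusted p under 0.05 6 members were higher (10.4% of all genes) and 0 lower (9.81%). The median change was 0.08 in 231BrM, against 0.05 over all genes tested, and 0.12 in the SKBrM3-labelled arrays, against 0.01 over all genes. Over all 29 members the 95% intervals ran from -0.58 to 0.97 in 231BrM and from -0.82 to 0.84 in the SKBrM3-labelled arrays, so moderate changes of single members are within the error.

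Averaged over both lines, 2 of 29 members rose and 0 fell, where 3.04% of all genes tested were called, 0.969% as risen and 2.07% as fallen. GBP3 read 7.34 and 6.85 on the 231BrM doxycycline arrays, against 6.47 and 6.51 on the 231BrM control arrays. On the SKBrM3-labelled arrays it read 5.46 and 5.46 with doxycycline, against 5.15 and 4.82 without. In each line both doxycycline arrays lay above both control arrays, and the average rise was 0.54 log2 units (standard error 0.113, limma adjusted p = 0.0441). Such separation is common with 2 arrays a group. In 231BrM 6 of 29 members (20.7%) had it, against 25.8% of all genes tested. In the SKBrM3-labelled arrays 11 of 29 (37.9%) had it, against 32.3% of all genes. DDX60 read 5.30 and 5.04 on the 231BrM doxycycline arrays, against 4.76 and 4.88 on the 231BrM control arrays. On the SKBrM3-labelled arrays DDX60 read 4.70 and 4.75 with doxycycline, against 4.43 and 4.18 without, the last value under the filter level. Its groups did not overlap either, and the average rise was 0.38 (standard error 0.0822, limma adjusted p = 0.0469). Both calls lie close to the threshold: with the replicate number as a block DDX60 had a limma adjusted p = 0.0541. Without any one control array or SKBrM3-labelled doxycycline array neither gene was called, with adjusted p-values from 0.0748 to 0.184 (limma). Without 231BrM doxycycline replicate 1 these 2 members were called (5.31% of all genes), at 0.42 for GBP3 and 0.32 for DDX60. Without replicate 2 of that group 13 were (22.3% of all genes). With the mean of all probe sets GBP1 and IFI35 joined them in the average, 4 of 27 members in all (3.57% of all genes).

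**Figure D3:**
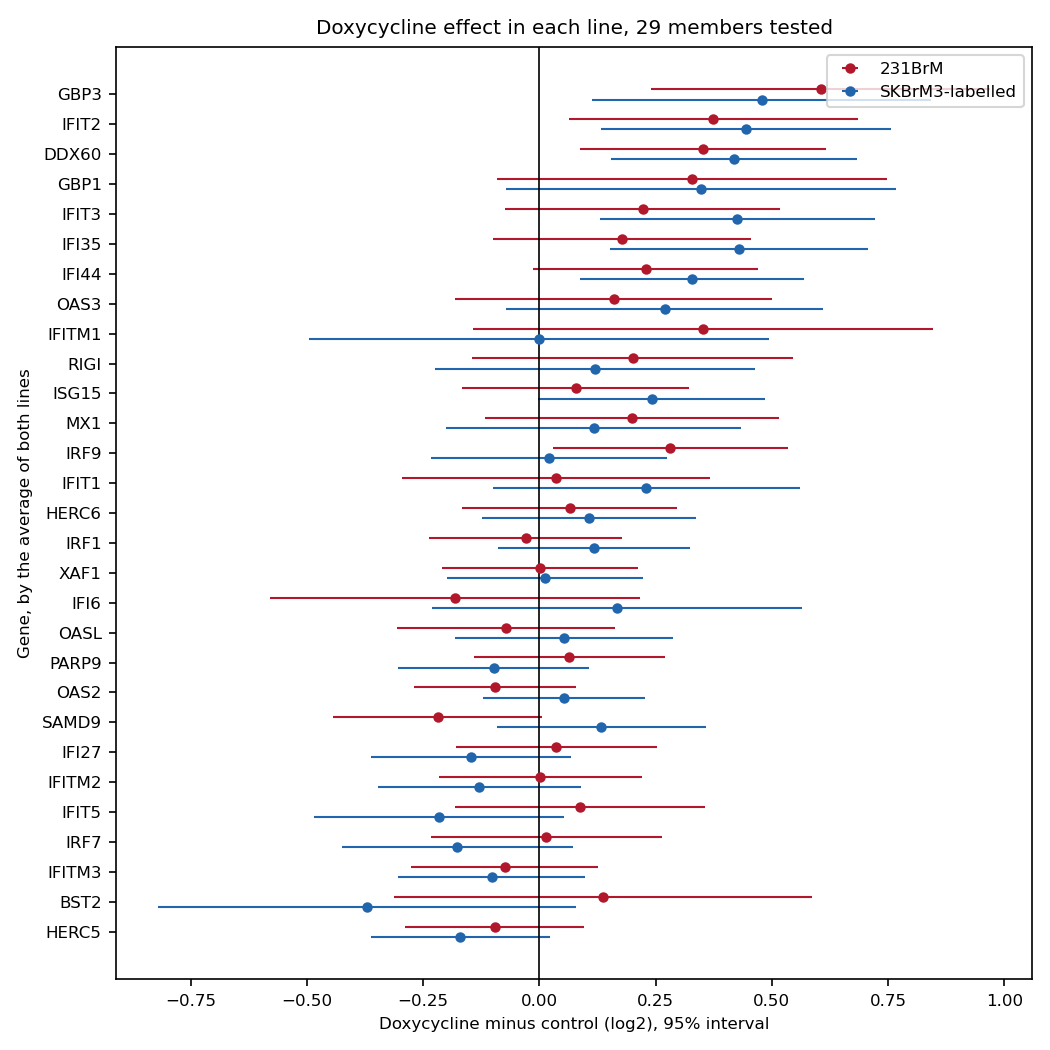
Doxycycline minus control (log2, x axis) for the 29 members tested, in 231BrM and in the SKBrM3-labelled arrays, ordered by the average of both; points are limma estimates from 2 arrays a group and bars are 95% intervals. GBP3, IFIT2 and DDX60 lie at the top with positive estimates in both lines.

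A further 5 members had an unadjusted p under 0.05 in this average without passing the adjustment, all with positive values. With GBP3 and DDX60 that makes 7 higher (11.7% of all genes), and 0 were lower (7.28%). IFIT2 read 6.66 and 6.37 on the 231BrM doxycycline arrays, against 6.20 and 6.08 on the 231BrM control arrays. On the SKBrM3-labelled arrays IFIT2 read 4.60 and 4.56 with doxycycline, against 3.95 and 4.32 without, both control values under the filter level. Its average was 0.41 (limma adjusted p = 0.0626), with no overlap of doxycycline and control arrays in either line. The second IFIT2 probe set, under the filter, gave 0.31 in 231BrM and 0.05 in the SKBrM3-labelled arrays. IFI44 averaged 0.28 (limma adjusted p = 0.0943), GBP1 0.34 (limma adjusted p = 0.21), IFIT3 0.32 and IFI35 0.30 (each with a limma adjusted p = 0.108). By comparison, IFITM2 and IFITM3 had averages of -0.06 and -0.09, and XAF1 0.01. ISG15 read 8.04 and 7.73 on the 231BrM doxycycline arrays, against 7.80 and 7.81 on the control arrays, and these overlap. On the SKBrM3-labelled arrays ISG15 read 7.10 and 7.23 with doxycycline, against 6.92 and 6.93 without, and its average was 0.16 (limma adjusted p = 0.296).

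In the SKBrM3-labelled arrays 6 members had an unadjusted p under 0.05, and whether they were called depended on the fit. They were not called as reported, nor with no filter, the stricter filter, a variance trend, the replicate block or centring, nor without any one 231BrM control array or SKBrM3-labelled array, each of which gave 0 members by limma. IFI35, which binds NMI, read 7.70 and 7.64 with doxycycline, against 7.21 and 7.27 without, a change of 0.43 (standard error 0.122, limma adjusted p = 0.0998). IFIT3 read 5.92 and 6.08 with doxycycline, against 5.57 and 5.58 without, a change of 0.43 (limma adjusted p = 0.119). IFI44, a cytoplasmic protein of the response, read 6.85 and 6.98 with doxycycline, against 6.57 and 6.60 without, a change of 0.33 (limma adjusted p = 0.135). GBP3, IFIT2 and DDX60 had changes of 0.48, 0.45 and 0.42 there (limma adjusted p = 0.147, 0.121 and 0.0952). The spread in these fits is shared with the 231BrM doxycycline arrays, which lie far apart. Without 231BrM doxycycline replicate 1 the same 6 members were called higher, as were 12.7% of all genes in either direction, with limma adjusted p-values from 0.00667 (IFI35) to 0.0381 (IFIT2). The 6 were also called without replicate 2 of that group (12.5% of all genes) and with array weights (12.3%), and the 4 SKBrM3-labelled arrays alone gave 5 of 26 members (10.2% of all genes), all but IFIT2. Further IFI44 probe sets above the filter gave 0.27, 0.36 and -0.14, and the other IFI35 probe set gave 0.68. With the mean of all probe sets IFI35 was the 1 member of 27 called there (3.02% of all genes). Over the 29, both doxycycline arrays lay above both controls for 11 members (32.3% of all genes) and below for 6 (27.2%), BST2 among them, which read 3.71 and 3.63 with doxycycline, against 3.86 and 4.22 without.

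In 231BrM the values turned on a single array. Of the 29 members 26 were higher on doxycycline replicate 1 than on replicate 2, against 70.2% of all genes tested. The median distance from the control mean was 0.23 on replicate 1 and -0.03 on replicate 2. Over all genes tested it was 0.10 on replicate 1 and -0.0013 on replicate 2. GBP1 read 7.07 and 6.49 on the doxycycline arrays, against 6.30 and 6.60 on the control arrays, so replicate 1 alone lies above both controls. Other GBP1 probe sets were mixed: 1 also had replicate 1 alone above (5.53 and 4.31, against 4.64 and 4.26). Another had replicate 2 alone above (5.19 and 5.95, against 5.51 and 5.64). MX1 read 4.89 and 4.41 with doxycycline, against 4.47 and 4.42 without, and BST2 read 7.68 and 7.03 with doxycycline, against 7.14 and 7.30 without. IFI6 went the other way, at 5.79 and 6.37 with doxycycline, against 6.26 and 6.27 without. The high members lie on the array with raised 3′ signal, and the part of RNA quality in the doxycycline values was not tested. Without replicate 2, 10 of 29 members were called by limma (12.8% of all genes), and without replicate 1, 0 were (0.618%). Each of these fits leaves 1 doxycycline array in 231BrM and takes its spread from the other groups.

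**Figure D4:**
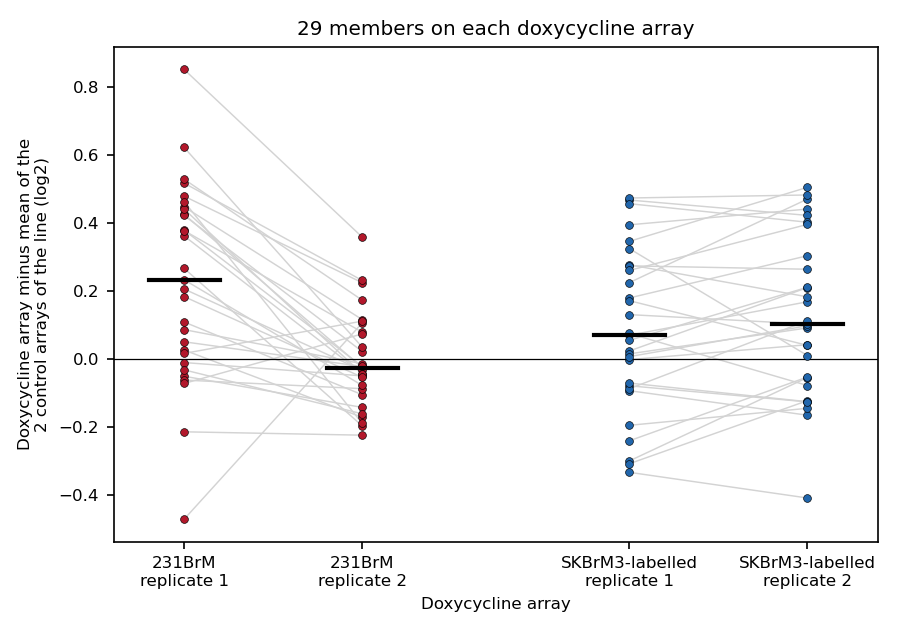
Each doxycycline array minus the mean of the 2 control arrays of its line (log2, y axis) for the 29 members tested; grey lines join the same gene and bars are medians. In 231BrM the median is 0.23 on replicate 1 and -0.03 on replicate 2, and in the SKBrM3-labelled arrays it is 0.07 and 0.10.

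Of the 3 transcription factors tested, IRF9 was the 1 with an unadjusted p under 0.05 under doxycycline. It read 8.08 and 7.75 on the 231BrM doxycycline arrays, against 7.68 and 7.58 on the control arrays, a change of 0.28 (limma adjusted p = 0.484), and 0.02 in the SKBrM3-labelled arrays. In 231BrM its 3 further probe sets gave 0.26, -0.04 and -0.04, and the mean of all its probe sets gave 0.12. SAMD9 read 6.41 and 6.40 with doxycycline in 231BrM, against 6.68 and 6.56 without. It had -0.22 in 231BrM and 0.13 in the SKBrM3-labelled arrays. The difference between the doxycycline effects of the lines was called for 0 of 29 members by limma, where 0.0231% of all genes were, and SAMD9 was the 1 member with an unadjusted p under 0.05 there (-0.35, limma adjusted p = 0.405). At that level 4.31% of all genes were lower and 6.86% higher, with 0 members among those higher. The 95% intervals of these differences ran from -0.91 to 1.14 over the 29 members, so the lines are not shown to respond alike.

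Of the 50 other pathway genes tested, 1 was called with doxycycline in either line. TBK1, the kinase that activates IRF3 and IRF7, read 7.64 and 7.66 with doxycycline on the SKBrM3-labelled arrays, against 8.03 and 8.05 without, and fell by 0.40 (standard error 0.0707, limma adjusted p = 0.0237), where 2.28% of all genes fell. In 231BrM TBK1 had -0.06, and the difference of the effects was 0.34 (limma adjusted p = 0.299). Among receptors and kinases the smallest p-values were those of IFNGR2 (0.24) and JAK1 (0.23) in the SKBrM3-labelled arrays and STAT3 (-0.21) in the average, and 0 of 9 passed limma. Among negative regulators, PTPN11 had -0.45 in the SKBrM3-labelled arrays, PTPN2 0.31 in 231BrM and PTPN6 0.22 in the average, and 0 of 9 passed limma. Of 21 further interferon-induced genes 0 passed limma. SP100 had 0.36 in 231BrM, and PARP14 and SP110 had 0.54 and 0.39 in the SKBrM3-labelled arrays (limma adjusted p = 0.247, 0.0962 and 0.0677).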

How the data were processed

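Log2 values per probe set (49386) and array were deposited after RMA by the authors, per the submitters' processing notes; the software that ran it, its version and the chip definition were not stated there. RMA equalises array distributions, so a change of total RNA cannot be seen, and no detection calls were used. Probe sets were named by the platform annotation and symbols updated by gene ID through RefSeq (GRCh38.p14, 45172 of 45253 with 1 gene). Those naming several genes (1327) or none (2713) and 93 control probe sets were set aside. limma 3.58.1 (R 4.3.3) fitted 4 group means over 8 arrays, where eBayes added 4.60 degrees of freedom to the 4 left by the fit. For doxycycline within a line the standard error had a median of 0.0968 over genes, and the number of arrays limits the precision. In simulated data of 13002 genes a small set was given a change of 1 or 0.5. Changes of 1 were recovered for 100% of those genes and changes of 0.5 for 81% (231BrM) and 77% (SKBrM3). There 8 and 17 unchanged genes were called. The simulated noise was independent and held no deviating array, so these shares do not give the power on the real arrays.

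The members and lists were chosen with earlier results of these data known, so no list is tested. All members are named. Array values are given for those called, those with an unadjusted p under 0.05 under doxycycline and the 5 with the highest mean, as far as results turn on them. Pathway genes called with doxycycline are named, else up to 3 per list by p. Promoters of BST2 and IFITM1, and the comparison of lines with doxycycline, were chosen after values were seen. Alternatives were the filter, the probe set rule, array weights, the variance model, centring, a replicate block, single lines and leaving out each array.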

Additional observations from a re-analysis of the deposited data

How the results depend on the processing

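Leaving out 1 array at a time gave 0 to 10 members called for doxycycline in 231BrM, 0 to 6 in SKBrM3, 0 to 13 for the average, 0 to 1 for the difference and 15 to 24 for the lines without doxycycline. The genes called were then 2 to 1654, 52 to 1644, 97 to 2884, 0 to 488 and 3318 to 6570, and the members' medians -0.0251 to 0.23, 0.04 to 0.12, 0.02 to 0.14, -0.16 to 0.0776 and 0.44 to 0.56. For 231BrM, 21 genes were called as reported, 11 with array weights, 45 with a variance trend, 43 with centred arrays and 1 with the 4 arrays of that line. For SKBrM3, 446 genes and 0 members were called as reported, 1605 and 6 with array weights, 1285 and 5 with that line alone, and 1 member (IFI35) with the mean of all probe sets. For the average, the members called were 1 under the stricter filter, 4 with the mean of all probe sets and 1 with the replicate block, against 2 as reported, and centring gave 614 genes against 395. For the difference, a variance trend gave 13 genes and centring 6, against 3. Same-numbered arrays of doxycycline and control had correlated deviations of 0.24 in 231BrM and -0.01 in SKBrM3, which does not show that the numbers pair samples. The replicate block left the other counts of members called as reported, at 0 for each line and the difference and 20 for the lines. Single-member values were recomputed only where the member was called as reported or, for doxycycline, had an unadjusted p under 0.05. Of these selected values 486 stayed on their side of the threshold, 37 crossed to a call, 34 lost it and 0 turned direction. Values outside that selection can turn. In 231BrM, ISG15 had 0.08 as reported and -0.08 without doxycycline replicate 1, and RIGI had 0.20 and -0.03. The cause of these changes was not tested.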
